A study of Mus musculus with 48 samples.

Results

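The genes described here are 27 genes of cholesterol synthesis, uptake and export, named by symbol: the regulators Srebf2, Scap, Insig1, Insig2 and Nr1h3, enzymes from acetyl-CoA to cholesterol, and the transport genes Stard4, Abca1, Abcg5, Abcg8 and Scarb1. Of these, 26 were found among the 22354 genes of the count table and all 26 passed the filter on low counts, as did 13646 of the 22353 genes other than Alb; Hmgcs1 was not analysed here. Liver RNA came from 48 female C57BL/6J mice, 25 labelled WT and 23 labelled KO, in which KO stands for a Bmal1 knockout restricted to adipocytes; Bmal1 is a core transcription factor of the circadian clock. Livers were taken every 4 h from ZT0 to ZT20 (ZT, zeitgeber time, hours counted from lights on), 4 mice per genotype and time except for 5 WT and 3 KO mice at ZT16. Mice of both genotypes had spent 1 day in darkness and had been fasted for 24 h, so every value below is from a fasted liver. They were 28.75 to 105 weeks old, and the ZT20 mice were the youngest (mean 42.1 weeks in both genotypes). Median body weight was 21.7 g in WT (18.7 to 25.7 g) and 24.5 g in KO (19.1 to 34.5 g). The driver of the adipocyte deletion is not given in the sources used here. Because the deletion lies outside the liver, no liver transcript tests the genotype labels.

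Cholesterol is built from acetyl-CoA through mevalonate, isoprenoid units, squalene and lanosterol. When the endoplasmic reticulum runs low in sterol, SCAP escorts the transcription factor SREBP2 (Srebf2) to the Golgi, where it is cut and released to switch on the synthesis genes; when sterol is plentiful, INSIG1 or INSIG2 holds SCAP back. Excess sterol acts through the receptor LXR alpha (Nr1h3), whose targets include the sterol exporters ABCA1, ABCG5 and ABCG8. In liver the pathway is known to follow feeding, fasting and time of day.

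The libraries held 12841969 to 13009797 counts without Alb (median 12929297). The 9 hepatocyte markers summed to between 31849 and 48218 CPM (counts scaled to a common library size) in WT and 25621 to 64540 CPM in KO, and none of 5 adipocyte markers passed the filter (at most 2.92 CPM in sum). Neutrophil markers were uneven, with sums from 1.79 to 434 CPM in WT and 1.53 to 509 CPM in KO, and exocrine pancreas markers reached 271 CPM in 1 KO library. In the rhythm test described below, 5 of 5 neutrophil and 3 of 4 sinusoidal endothelium markers passed in KO, and 0 of 5 and 1 of 4 in WT; their part in the results was not tested. Libraries also differed in how their log2 levels depended on the GC content of transcripts, with slopes from -0.77 to 0.59 log2 units per 10 GC points. In bulk liver, fewer cells of a type and less RNA per cell cannot be told apart.

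Fdft1, Fdps, Scarb1, Sqle and Stard4 had no promoter window in RefSeq. The other 21 of the 26 genes had 29 windows (GRCm38.p6, 250 bases before to 50 after the start). These windows are shown because the enzyme genes varied together between mice, as described below, and because CCAAT boxes, sites of the NF-Y factor that works beside SREBP2, are a textbook feature of such promoters. CCAAT on either strand occurred in 17 of the 29 windows (58.6%), against 37.408% of all 32851 windows, and 12 of the 13 synthesis enzymes with a window had at least 1; Acat2 was the exception. In the 6 windows printed, capitals mark CCAAT or its reverse complement ATTGG and, in Insig1 only, the E-box CACGTG that the clock proteins can bind. Each is given 5′ to 3′ on the gene's strand.
Insig1, chr5:28071162-28071461, plus strand: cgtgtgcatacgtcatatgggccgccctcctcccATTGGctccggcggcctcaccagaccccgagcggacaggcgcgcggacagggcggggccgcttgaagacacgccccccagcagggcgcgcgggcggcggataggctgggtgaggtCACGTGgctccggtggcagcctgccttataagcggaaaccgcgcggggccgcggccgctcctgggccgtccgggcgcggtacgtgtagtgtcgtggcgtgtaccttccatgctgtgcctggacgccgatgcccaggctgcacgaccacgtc
Insig2 (the first of 3 windows), chr1:121332540-121332839, minus strand: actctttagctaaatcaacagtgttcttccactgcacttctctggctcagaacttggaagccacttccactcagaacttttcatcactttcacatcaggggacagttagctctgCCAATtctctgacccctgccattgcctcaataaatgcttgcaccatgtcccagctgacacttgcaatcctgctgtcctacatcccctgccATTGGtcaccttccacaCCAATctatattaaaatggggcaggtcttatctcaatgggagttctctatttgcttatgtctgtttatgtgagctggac
Mvk, chr5:114444019-114444318, plus strand: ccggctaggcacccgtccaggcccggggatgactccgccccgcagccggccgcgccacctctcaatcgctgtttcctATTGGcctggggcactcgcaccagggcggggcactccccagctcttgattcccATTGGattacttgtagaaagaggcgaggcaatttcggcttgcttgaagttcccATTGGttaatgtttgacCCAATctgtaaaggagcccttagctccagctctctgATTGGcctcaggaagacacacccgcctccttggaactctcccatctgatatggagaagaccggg
Idi1, chr13:8885356-8885655, plus strand: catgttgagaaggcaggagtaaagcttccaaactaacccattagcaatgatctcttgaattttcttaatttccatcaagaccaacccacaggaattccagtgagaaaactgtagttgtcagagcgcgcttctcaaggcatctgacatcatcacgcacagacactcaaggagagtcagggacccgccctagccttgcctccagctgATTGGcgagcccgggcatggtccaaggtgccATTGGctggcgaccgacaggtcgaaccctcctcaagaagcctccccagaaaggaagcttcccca
Cyp51, chr5:4104648-4104947, minus strand: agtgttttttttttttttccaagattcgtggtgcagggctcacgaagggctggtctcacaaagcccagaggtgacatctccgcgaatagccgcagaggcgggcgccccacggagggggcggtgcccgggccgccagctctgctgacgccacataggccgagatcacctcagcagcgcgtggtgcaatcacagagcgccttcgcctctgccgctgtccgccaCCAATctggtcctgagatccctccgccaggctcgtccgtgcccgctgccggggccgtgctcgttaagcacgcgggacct
Sc4mol, chr8:64733529-64733828, minus strand: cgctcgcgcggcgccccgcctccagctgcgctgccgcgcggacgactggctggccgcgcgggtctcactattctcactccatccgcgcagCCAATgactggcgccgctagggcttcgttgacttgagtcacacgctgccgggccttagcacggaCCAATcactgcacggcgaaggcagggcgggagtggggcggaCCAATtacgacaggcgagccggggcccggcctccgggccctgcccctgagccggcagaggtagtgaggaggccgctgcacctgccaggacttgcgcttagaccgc

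Mvk had 5 CCAAT boxes in its window, Sc4mol and the first Insig2 window 3, Idi1 2, and Insig1 and Cyp51 1 each. The E-box CACGTG was found in windows of 5 of the 21 genes (Insig1, Abca1, Scap, Hsd17b7 and Dhcr7). By window, it was in 6 of the 29 member windows (20.7%) against 7.15% of all windows. The 2 Scap windows overlap and hold the same E-box, which the member share counts in each. The sterol regulatory element spelled TCACNCCAC, searched on both strands, was in none of the member windows and in 1.242% of all windows. The clock D-box TTATGNAA and the LXR element DR4 were not found in any member window, and were present in 3.385% and 0.015% of all windows; the half-site TAGGTCA was found in Dhcr7 and in 2.606% of all windows. These matches describe letters in a window only.

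Most of the pathway followed the time of day in WT livers. A 24 h cosine passed the test in 16 of the 26 genes (edgeR quasi-likelihood, adjusted p under 0.05), where 16.3% of all genes tested passed. By role these were 12 of the 16 synthesis enzymes, 2 of the 5 regulators and 2 of the 5 transport genes. All 12 enzymes peaked between ZT11.6 and ZT16.5 (median ZT14.0), around the start of the usual dark phase, with amplitudes (mean to peak) of 0.52 to 1.08 on the log2 scale. The median amplitude of the 26 genes was 0.59 in WT, against 0.22 over all genes.

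**Figure D1:**
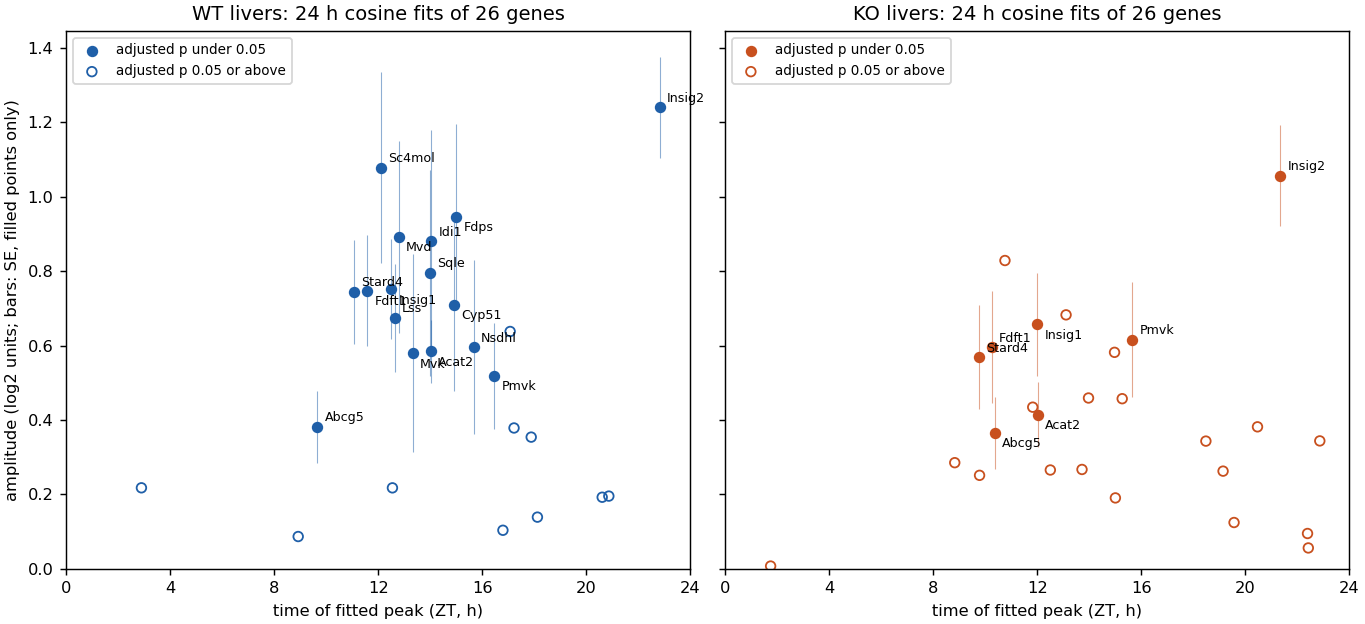
Amplitude in log2 units (mean to peak) against the time of the fitted peak for the 26 genes, WT on the left and KO on the right; filled points passed the rhythm test and carry SE bars. In WT the 12 enzymes that passed lie between ZT11.6 and ZT16.5 while Insig2 peaks at ZT22.8, and 16 points are filled against 7 in KO.

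The clearest rhythm belonged to Insig2, which encodes the INSIG form known to be abundant in fasted liver. The 4 WT mice at ZT0 had 777, 1169, 986 and 856 CPM, and the 4 at ZT12 had 164, 163, 239 and 159 CPM. All ZT0 livers were thus far above all ZT12 livers, with no overlap. The cosine had an amplitude of 1.24 ± 0.14 (SE) and a peak at ZT22.8 ± 0.40 h, a 5.58-fold range from trough to peak (adjusted p = 2.54e-07). In KO the ZT20 livers held 933, 826, 1172 and 979 CPM and the ZT8 livers 210, 303, 205 and 159 CPM. The KO cosine had an amplitude of 1.06 ± 0.14 and a peak at ZT21.3 ± 0.51 h (adjusted p = 6.46e-06).

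Insig1, the INSIG form that is itself an SREBP2 target, ran in the opposite part of the day. WT livers held 97.5, 70.7, 82.5 and 65.5 CPM at ZT0 and 250, 215, 214 and 214 CPM at ZT12. Every ZT12 liver was above every ZT0 liver. The amplitude was 0.75 ± 0.13 with a peak at ZT12.5 ± 0.68 h in WT (adjusted p = 0.000445) and 0.66 ± 0.14 with a peak at ZT12.0 ± 0.82 h in KO (adjusted p = 0.0086). Insig2 levels divided by Insig1 levels in the same liver had a median of 12.5 at ZT0 (range 7.97 to 16.5) and 0.752 at ZT12 (range 0.656 to 1.12) in WT. In KO the medians were 7.73 at ZT0 (range 5.37 to 27.9) and 1.36 at ZT12 (range 0.922 to 2.12). In both genotypes every ZT12 liver had a lower ratio than every ZT0 liver. At ZT8 the median was below 1 in both, 0.955 in WT and 0.953 in KO. The ratios were not corrected for transcript length, and a genotype difference in them was not tested.

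**Figure D2:**
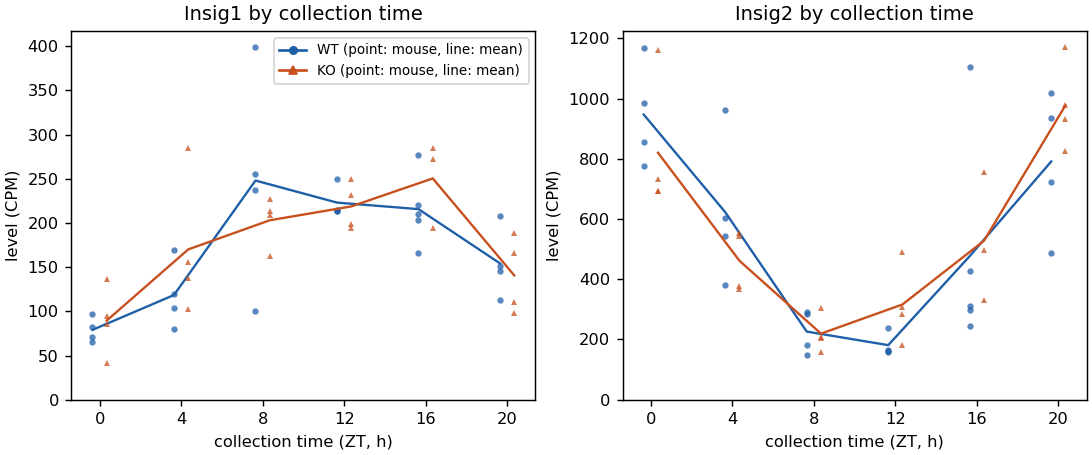
Insig1 and Insig2 levels (CPM) against collection time, 1 point per mouse, with lines through the group means of WT (circles) and KO (triangles). Insig1 is lowest at ZT0 (65.5 to 97.5 CPM in WT), when Insig2 is highest in WT (777 to 1169 CPM).

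The other regulators did not pass the rhythm test in either genotype. Srebf2 group means ran from 27.3 CPM at ZT8 to 71.6 CPM at ZT16 in WT (adjusted p = 0.247) and from 29.8 CPM at ZT8 to 55.6 CPM at ZT16 in KO (adjusted p = 0.244). Scap, the escort of SREBP2, had adjusted p = 0.768 in WT and 0.257 in KO. Nr1h3 was the steadiest gene of the 26, with a standard deviation (SD) within groups of 0.14 log2 units and levels of 97.4 to 174 CPM over all 48 mice.

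Among the enzymes of the mevalonate arm, Acat2, which joins acetyl-CoA units, had the smallest p. In WT it held 46.0, 29.7, 34.03 and 31.97 CPM at ZT0 and 95.7, 78.9, 80.6, 57.5 and 87.7 CPM at ZT16, again without overlap. Its amplitude was 0.58 ± 0.08 with a peak at ZT14.0 ± 0.56 h (adjusted p = 5.91e-06), and 0.41 ± 0.09 with a peak at ZT12.0 ± 0.83 h in KO (adjusted p = 0.00285). Of Acat2's 50-base words, 45.9% also occur in its paralog Acat3, so reads could be split between them. Fdps, which makes farnesyl pyrophosphate, rose from 77.6, 22.98, 33.1 and 22.1 CPM at ZT0 to 256, 139, 126, 66.7 and 232 CPM at ZT16 in WT, where 1 ZT0 liver overlapped the lowest ZT16 liver (amplitude 0.95 ± 0.25, adjusted p = 0.00576). Pmvk (phosphomevalonate kinase) passed in both genotypes, with amplitudes of 0.52 ± 0.14 in WT (peak ZT16.5 ± 1.1 h, adjusted p = 0.0106) and 0.62 ± 0.15 in KO (peak ZT15.7 ± 0.92 h, adjusted p = 0.0151). Mvk (mevalonate kinase), Mvd (the decarboxylase that makes isopentenyl pyrophosphate) and Idi1 (the isomerase that follows) passed in WT but not in KO, with WT amplitudes of 0.58 ± 0.27 (adjusted p = 0.0459), 0.89 ± 0.26 (0.00897) and 0.88 ± 0.30 (0.00964). Mvk lost its call in 21 of 48 fits that each left out 1 library, and a test of any difference among the 6 times ended the call of all 3 (adjusted p = 0.0946, 0.093 and 0.0539). Of the words of Idi1, Fdps and Fdft1, 21.3%, 11.7% and 10.85% are shared with other genes.

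**Figure D3:**
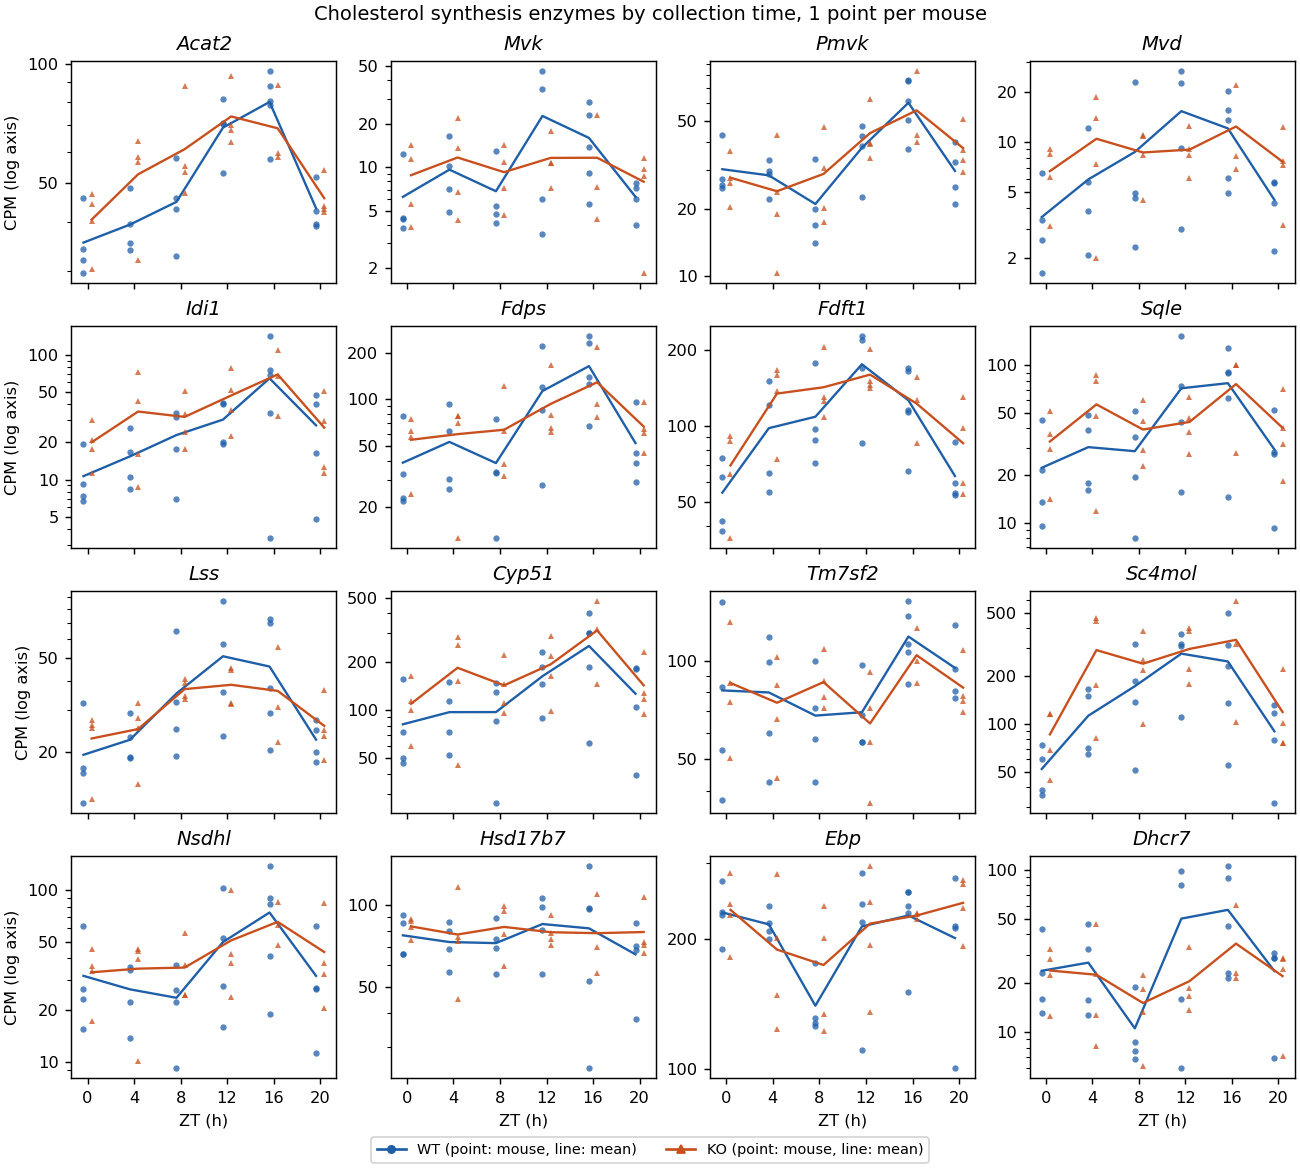
Levels (CPM, log axis) of the 16 synthesis enzymes against collection time, with 1 point per mouse (WT circles, KO triangles) and lines through group means. Fdps in WT runs from 22.1 to 77.6 CPM at ZT0 and from 66.7 to 256 CPM at ZT16, and the mice of a group are often several-fold apart.

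In the squalene and sterol arm, Fdft1 (squalene synthase), Sqle (squalene epoxidase), Lss (lanosterol synthase), Cyp51 (lanosterol demethylase), Sc4mol (the C4 methyl oxidase also called Msmo1) and Nsdhl (the dehydrogenase that acts with it) passed in WT. Sc4mol had the largest WT amplitude among the enzymes, 1.08 ± 0.26 with a peak at ZT12.1 ± 0.89 h (adjusted p = 0.00358). Its WT levels were 73.8, 38.5, 60.6 and 35.7 CPM at ZT0 and 316, 111, 370 and 311 CPM at ZT12. No ZT0 liver reached the lowest ZT12 liver. Cyp51 held 156, 47.03, 72.7 and 50.3 CPM at ZT0 and 302, 403, 184, 62.4 and 300.4 CPM at ZT16 in WT, so these groups overlapped (amplitude 0.71 ± 0.23, adjusted p = 0.0292). Sqle held 44.7, 13.4, 21.5 and 9.57 CPM at ZT0 and 129, 89.4, 62.2, 14.5 and 90.8 CPM at ZT16, also with overlap through 1 low ZT16 liver (amplitude 0.80 ± 0.28, adjusted p = 0.0249). With the test of any difference among times the calls of Sqle (adjusted p = 0.102) and Cyp51 (0.124) were lost, and leaving out 1 library ended them in 2 and 5 of 48 fits. Nsdhl, with a WT amplitude of 0.60 ± 0.23 (adjusted p = 0.0392), lost its call in 12 of 48 such fits and with that test (adjusted p = 0.142). Lss, at 32.4, 16.4, 17.2 and 12.2 CPM in WT at ZT0 and 35.8, 23.5, 86.2 and 57.2 CPM at ZT12, which overlap, held its WT call in all 48 fits, with an amplitude of 0.67 ± 0.15 and a peak at ZT12.6 ± 0.82 h (adjusted p = 0.000646). Fdft1 passed in both genotypes, with amplitudes of 0.75 ± 0.15 in WT (adjusted p = 0.000661) and 0.60 ± 0.15 in KO (adjusted p = 0.0216). Of the same arm, Tm7sf2, Hsd17b7, Ebp and Dhcr7 passed in neither genotype. Hsd17b7 had a WT amplitude of 0.09 ± 0.13.

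Among the transport genes, Stard4, a soluble carrier of cholesterol between membranes and an SREBP2 target, followed the enzymes. Its WT levels were 42.3, 29.99, 38.8 and 37.8 CPM at ZT0 and 153, 95.8, 96.1 and 92.9 CPM at ZT12, which did not overlap. The amplitude was 0.74 ± 0.14 with a peak at ZT11.1 ± 0.69 h in WT (adjusted p = 0.000261) and 0.57 ± 0.14 with a peak at ZT9.77 ± 0.98 h in KO (adjusted p = 0.0147). Abcg5, one chain of the biliary sterol exporter, had a smaller rhythm of 0.38 ± 0.10 in WT (adjusted p = 0.00816) and 0.37 ± 0.10 in KO (adjusted p = 0.0167), with peaks at ZT9.66 and ZT10.4. Its partner Abcg8 (adjusted p = 0.333 in WT and 0.325 in KO), Abca1, which loads cholesterol onto apolipoprotein A-I, and Scarb1, the HDL receptor, passed in neither genotype.

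In KO livers 7 of the 26 genes passed the rhythm test, where 17% of all genes passed, and all 7 had also passed in WT: Insig2, Acat2, Stard4, Insig1, Fdft1, Pmvk and Abcg5. Of the 16 enzymes 3 passed in KO. With the test of any difference among times, Stard4, Fdft1, Pmvk and Abcg5 lost their KO call (adjusted p = 0.0534 to 0.0932). The fitted amplitude was smaller in KO than in WT in 21 of the 26 genes, a count whose share over all genes is not given here. These genes are not independent, because many of them varied together between mice. The median amplitude was 0.37 in KO against 0.59 in WT, while over all genes it was 0.25 against 0.22. The test of the difference itself called none of the 26 genes, with 0.00733% of all genes called; the smallest unadjusted p was 0.036, for Acat2, the only gene under 0.05, and DESeq2 called none either. For Sqle the KO minus WT amplitude was -0.53 ± 0.41, with a 95% interval of -1.35 to 0.29, and for Mvd it was -0.63 ± 0.37, with an interval of -1.37 to 0.12. A smaller rhythm in KO was therefore not established for any gene of the pathway. For these 2 genes the intervals hold both smaller and larger KO amplitudes. Their lower limits pass the WT amplitudes of 0.80 (Sqle) and 0.89 (Mvd), which cannot occur, because an amplitude cannot be negative. The intervals are only approximate, as the KO amplitudes are near their SE (0.27 ± 0.29 for Sqle and 0.27 ± 0.27 for Mvd). With a test of any difference among the 6 times in place of the cosine, 10 genes passed in WT (8.55% of all genes) and 3 in KO (9.73%).

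No gene of the pathway passed the test of KO against WT. For the mean over the 6 times, 1.4% of all genes were called and none of the 26; 2 had an unadjusted p under 0.05, as did 2336 of all 13646 genes tested, and DESeq2 called none. Sc4mol had the smallest p, with 0.59 ± 0.24 log2 units higher in KO (SE, adjusted p = 0.202), followed by Stard4 at 0.30 ± 0.13 (adjusted p = 0.236) and Cyp51 at 0.44 ± 0.22 (adjusted p = 0.293). The 95% interval for Sc4mol was 0.11 to 1.06. Estimates were above 0 in 19 of the 26 genes and below 0 in 7, against 6678 above and 6968 below over all genes. The median was 0.09, against -0.00474 over all genes. The lowest was Dhcr7, the last reductase of the pathway, at -0.30 ± 0.26.

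**Figure D4:**
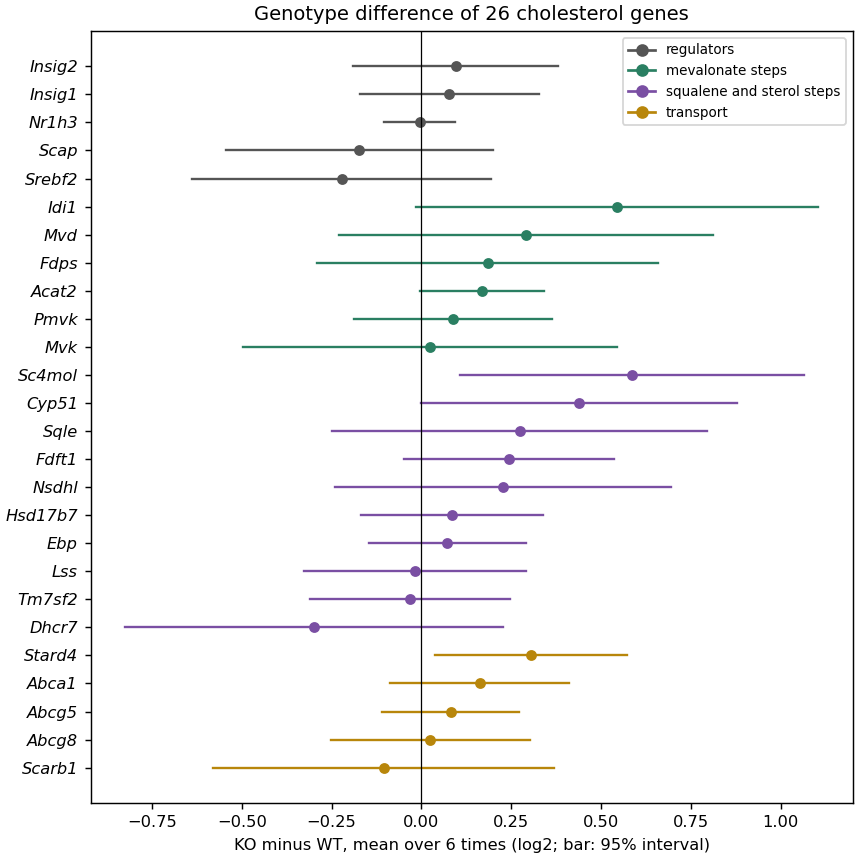
KO minus WT difference (log2, mean over the 6 times) of the 26 genes, ordered by role and size; points are estimates and bars 95% intervals. Sc4mol is highest at 0.59 and Dhcr7 lowest at -0.30, and no gene passed the test after adjustment.

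At single times the calls among the 26 genes were also 0, against 0.0366% of all genes at ZT4, 0.022% at ZT16, 0.0147% at ZT0 and 0% at the other 3 times (ZT8, ZT12, ZT20). DESeq2 called none at any time, and genes with an unadjusted p under 0.05 numbered 2 at ZT4 (3175 of all 13646 genes tested), 2 at ZT12 (600), 1 at ZT8 (248), 1 at ZT16 (907), and 0 at ZT0 (754) and at ZT20. The smallest adjusted p was 0.132, for Stard4 at ZT4, where KO livers held 61.6, 122, 184 and 69.1 CPM and WT livers 64.9, 45.01, 71.0 and 49.2 CPM (0.92 ± 0.33 log2 units). In 1 of 48 fits that each left out 1 library, that without replicate 1 of KO ZT4, Stard4 passed (1.12, edgeR adjusted p = 0.021). The number of all genes called in that fit is not given here, so this call cannot be set against their share. Replicate 1 of KO ZT4 had a GC slope of 0.46 where the other 3 of its group had -0.34, -0.77 and -0.67. Stard4 correlated with the slope at -0.46 within groups, and the part of the slope in this call was not tested. Sc4mol at ZT4 held 177, 462, 445 and 81.9 CPM in KO and 149, 71.1, 166 and 64.7 CPM in WT (1.37 ± 0.59, adjusted p = 0.169), so the groups overlapped for both genes. The interaction of genotype with time called none of the 26 genes (0.00733% of all genes); none had an unadjusted p under 0.05, and DESeq2 called none.

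Several genes moved with the GC slope of the libraries. Within groups, the correlation of a gene's level with the slope over 48 libraries was 0.91 for Scap, 0.90 for Scarb1, 0.87 for Srebf2, 0.76 for Dhcr7 and -0.84 for Abca1, but 0.12 for Sqle and -0.30 for Insig2. In that order, GC content was 59.1%, 48.5%, 57.9%, 52.8%, 47.5%, 48.6% and 46.0%. Scarb1 and Sqle were thus alike in GC content but not in this correlation. The mean slope was -0.33 in KO and 0.20 in WT at ZT4, and -0.22 in KO and 0.08 in WT at ZT12. At ZT12 Srebf2 averaged 30.97 ± 5.84 CPM in KO (SD, n = 4) and 68.1 ± 54.3 in WT (n = 4), a difference of -1.14 ± 0.51 log2 units with adjusted p = 0.908. With the slope as a covariate, KO minus WT was above 0 in all 26 genes and in 6952 of all 13646 genes tested. The medians were 0.19 and 0.00266, and the lowest of the 26 was Abca1 at 0.000613. None of the 26 was called, and their signs are not independent because many of these genes varied together between mice. Srebf2, Scap, Nr1h3, Lss, Tm7sf2, Dhcr7 and Scarb1 had been below 0 without the covariate. For Stard4 the mean difference went from 0.30 to 0.19 (adjusted p = 0.495). The part of the slope in these levels was not otherwise tested.

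Mice of the same group differed widely in the pathway. The SD of log2 levels within groups had a median of 0.86 over the 16 enzymes, against 0.41 over all genes, and was highest for Idi1 (1.12) and Sqle (1.01). From the lowest to the highest of the 48 livers, Idi1 ranged 41.5-fold, Mvk 25.0-fold, Fdps 20.2-fold and Sqle 19.3-fold, where Nr1h3 ranged 1.78-fold. In 19 of the 48 mice at least 15 of the 16 enzymes lay on the same side of their group means, above in 11 mice and below in 8; in the other mice fewer did, and KO ZT16 replicate 3 had 7 above and 9 below. KO ZT4 replicate 4 was the lowest of its group for all 16 enzymes (median deviation -1.14 log2 units), and WT ZT8 replicate 1 was the highest of its group for 15 (median deviation 0.85).

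This shared variation was measured against Sqle, as deviations from the 12 group means in 48 mice, with p from 100000 permutations within groups (two-sided) adjusted over all genes. Of the other 25 genes 15 passed, all with positive Pearson r, where 0.498% of all genes passed (68 of 13645). They were 13 of the 15 other enzymes, Insig1 and Stard4; Hsd17b7 (r = 0.655, permutation p = 0.0001, adjusted p = 0.0248) did not pass by Spearman's rho (0.533, adjusted p = 0.104). The closest were Cyp51 (r = 0.919, Spearman rho = 0.906), Fdps (0.914, 0.906), Sc4mol (0.910, 0.898), Nsdhl (0.875, 0.869) and Fdft1 (0.854, 0.862), each with a permutation p of 1e-05, the smallest that the permutations can give (adjusted p = 0.00546). The other enzymes that passed were Acat2 (r = 0.835, rho = 0.842), Idi1 (0.813, 0.819), Lss (0.779, 0.749), Mvd (0.759, 0.730), Mvk (0.720, 0.686) and Pmvk (0.693, 0.683), with the same permutation p, and Dhcr7 (r = 0.634, rho = 0.616, permutation p = 5e-05, adjusted p = 0.0166). Without the 2 mice farthest from the median of Sqle (WT ZT16 replicate 4 and KO ZT4 replicate 4) r was 0.895 for Cyp51, 0.904 for Fdps and 0.887 for Sc4mol. Within genotypes, r for Cyp51 was 0.914 in WT and 0.929 in KO. Tm7sf2 (r = 0.413, rho = 0.408, permutation p = 0.00782, adjusted p = 0.281) and Ebp (r = 0.287, rho = 0.242, permutation p = 0.107, adjusted p = 0.653) were the enzymes that did not pass. Over all 120 pairs of the 16 enzymes, r was above 0 in 119, with a median of 0.653; the points of a pair share a library and its depth.

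The regulators divided. Insig1 passed with r = 0.598 (rho = 0.562, permutation p = 4e-05, adjusted p = 0.0144). Srebf2 itself had r = 0.545 (rho = 0.545, permutation p = 0.00175, adjusted p = 0.151), and r = 0.888 (adjusted p = 0.00262) once the GC slope was taken out of both genes. Taking out the slope also raised the median r of the 120 enzyme pairs, from 0.653 to 0.785. The share of all genes that passed with Sqle in that setting is not given here. Insig2, the gene with the clearest rhythm, had r = 0.00521 (rho = -0.0337, permutation p = 0.977, adjusted p = 0.996). In the transport group Stard4 passed (r = 0.701, rho = 0.669, permutation p = 3e-05, adjusted p = 0.0114), whereas r was 0.270 for Abcg8, 0.184 for Scarb1, 0.170 for Abcg5 and -0.155 for Abca1. Nr1h3 had r = -0.108.

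**Figure D5:**
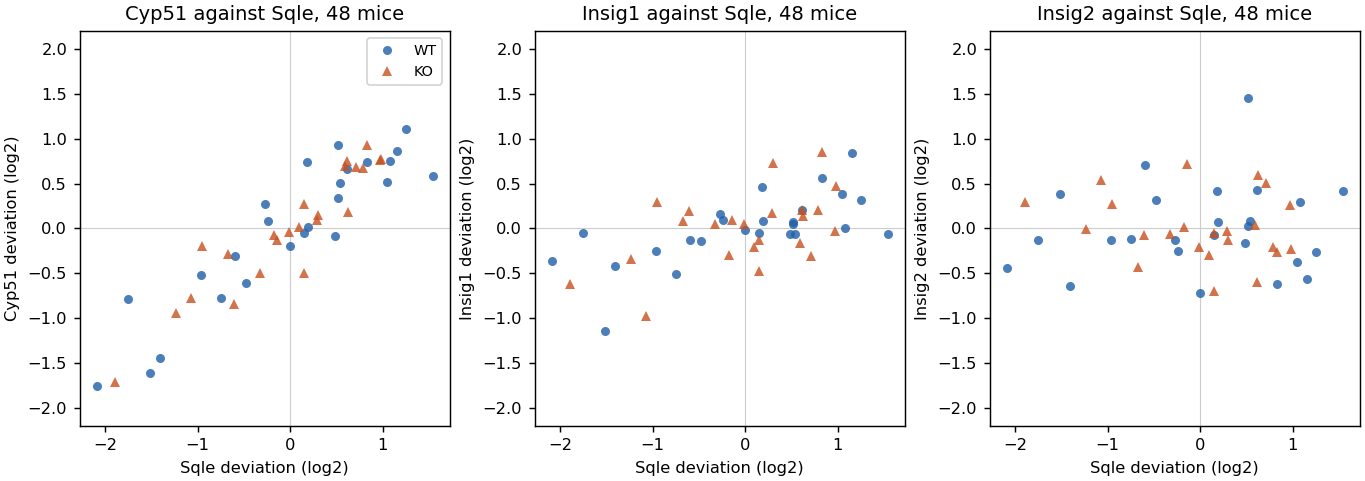
Deviation from the group mean (log2) of Cyp51, Insig1 and Insig2 on the y axes against that of Sqle on the x axes, 1 point per mouse (WT circles, KO triangles). Cyp51 lies along a line (r = 0.919), Insig1 spreads more (r = 0.598) and Insig2 scatters around 0 (r = 0.00521).

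Per kilobase of exon in the GENCODE annotation, levels in WT were highest for Insig2 (182 ± 116 CPM per kb, SD, n = 25), Ebp (118 ± 30.9) and Sc4mol (79.3 ± 61.3), and lowest for Mvk (5.75 ± 5.44) and Mvd (4.83 ± 4.22). Insig1 stood at 64.8 ± 29.5, Srebf2 at 10.1 ± 6.10 and Scap at 15.6 ± 7.44 CPM per kb. Insig2 and Ebp, Ebp and Sc4mol, and Mvk and Mvd each differed by less than the larger SD of the pair.

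Of 36 other genes of cholesterol regulation, transport and storage, 34 passed the filter. Vldlr, a receptor for triglyceride-rich lipoproteins, was the only one called for the mean KO minus WT difference, at 0.57 ± 0.14 log2 units (edgeR, adjusted p = 0.0313). At ZT0 its levels were 26.7, 24.0, 28.5 and 19.4 CPM in KO and 12.1, 13.0, 7.01 and 14.98 CPM in WT, without overlap. At the other 5 times the genotypes overlapped, and at ZT20 the KO mean was the lower (16.5 ± 5.09 against 18.6 ± 6.11 CPM, SD, n = 4 each). The call was lost when body weight was a covariate (0.55, edgeR adjusted p = 0.183), and median weight was 24.5 g in KO and 21.7 g in WT. The call was also lost in 6 of 48 fits that left out 1 library, the highest adjusted p being 0.136 without KO ZT16 replicate 3. Star, the mitochondrial cholesterol carrier of steroid-producing cells, was called at ZT0 (-2.59 ± 0.49, adjusted p = 0.0332), on WT levels of 2.52, 3.18, 26.5 and 2.88 CPM and KO levels of 1.12, 1.75, 1.60 and 1.33 CPM. That call rested on 1 WT liver, WT ZT0 replicate 3, without which the estimate was -0.97 and the adjusted p 1.

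Rhythms passed in 7 of the 34 other genes in WT and 6 in KO, shares close to the 16.3% and 17% of all genes. In WT they included Soat2, which esterifies cholesterol (amplitude 0.42 ± 0.09, peak ZT6.51), Vldlr (0.69 ± 0.16, ZT8.37) and Lipa, the lysosomal lipase (0.34 ± 0.09, ZT21.7). In KO the smallest p belonged to Mylip, a ubiquitin ligase for lipoprotein receptors (0.53 ± 0.11, ZT15.7), Vldlr (0.74 ± 0.16, ZT7.71), Sc5d, a sterol desaturase (0.47 ± 0.11, ZT8.25) and Cyp27a1, which oxidises sterols (0.42 ± 0.12, ZT18.9). Tmem97, a sterol-binding membrane protein, was the only gene of the 34 to pass in the comparison with Sqle (r = 0.739, permutation p = 1e-05, adjusted p = 0.00546).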

How the data were processed

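Liver polyA RNA of 48 mice was sequenced from stranded libraries made with 13 PCR cycles over 3 days, per the labels' protocols; library days per mouse are not given in the sources used here. Per the submitters' processing notes, CASAVA and STAR 2.4.1d were used with build mm9. The authors deposited whole-number values per gene, taken here as read counts per the file headers. Totals without Alb were close to each other (12841969 to 13009797). Whether the values had been scaled or resampled to a common depth was not tested. The counting program is not given in the sources used here. Replicates are separate mice on the labels.

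Alb was left out because its values were whole multiples of 1311.614 (within 0.000942 of a step); it held 5.66% to 14.6% of counts. Counts were fitted with edgeR 4.0.16 in R 4.3.3 (filterByExpr, TMM factors 0.892 to 1.11): 12 group means for KO minus WT and the interaction, and a mean with 24 h cosine and sine per genotype for rhythms. Benjamini-Hochberg adjustment ran over all 13646 genes, with a threshold of 0.05. Amplitudes and peaks came from least squares on log2 CPM (prior count 2). GC content was that of GENCODE transcripts, found for 97.6% of genes. The planned reference for the correlation, Hmgcs1, had no values here, so Sqle, chosen after the files were seen, was used, and p-values were adjusted over all genes and not over the members. Promoter windows are RefSeq's and were not mixed with mm9 coordinates. The edgeR fits and the correlation were tested on simulated data.

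Every member is named; those that passed a test or had one of the 3 smallest p in KO minus WT are given with values, and up to 4 other pathway genes per comparison; 1 such gene is not reported here. Alternatives were DESeq2 1.42.0, no filter, body weight, age, a replicate block, a 5-df test of time, each library left out, and, added after seeing the data, the GC slope as a covariate and 7 libraries of extreme slope left out. The members and lists were chosen with earlier results of these data known.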

Additional observations from a re-analysis of the deposited data

Results flagged for a closer look

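Of 286 group-by-gene sets of 4 or 5 mice, 25 (8.74%) had 1 mouse far from the rest in CPM, 20 high and 5 low. A chance rate of about 1 in 20 such sets holds only for normally distributed values. Whether the CPM values of a set are so distributed was not tested, so 8.74% cannot be read as an excess over chance. Sets of the same mouse are not independent.

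WT ZT8 replicate 1 stood high in 4 enzymes: Mvk (13.0 CPM, others 4.09 to 5.43), Mvd (22.9 CPM, others 2.32 to 4.95), Ebp (176 CPM, others 125 to 131) and Dhcr7 (19.1 CPM, others 6.83 to 8.64). WT ZT0 replicate 1 stood high in Scap (117 CPM), Mvk (12.3 CPM) and Pmvk (43.2 CPM). KO ZT12 replicate 2 stood high in Fdps (168 CPM) and Fdft1 (202 CPM), and KO ZT20 replicate 2 in Acat2 (54.1 CPM) and Hsd17b7 (107 CPM). KO ZT4 replicate 4 stood low in Fdps (12.7 CPM, others 69.9 to 78.0) and Nsdhl (10.2 CPM, others 39.8 to 45.5).

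Insig2 stood high in WT ZT16 replicate 2 (1104 CPM, others 244 to 426), KO ZT0 replicate 2 (1160.5 CPM, others 693 to 733) and WT ZT12 replicate 3 (239 CPM, others 159 to 164). WT ZT16 replicate 2 was also low in Ebp (151 CPM) and high in Abca1 (188 CPM). KO ZT0 replicate 2 was low in Lss (12.8 CPM). WT ZT12 replicate 1 was high in Insig1 (250 CPM) and Stard4 (153 CPM), and KO ZT12 replicate 1 in Stard4 (130 CPM). Nr1h3 was high in WT ZT16 replicate 4 (174 CPM), Scarb1 in KO ZT4 replicate 1 (256 CPM, others 43.2 to 61.7), and Dhcr7 was low in WT ZT20 replicate 2 (6.95 CPM, others 28.5 to 30.7).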

How the results depend on the processing

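Rhythm calls of the 26 genes are given here with the share of all genes called under the same setting. In WT they numbered 15 without a count filter (8.56%, over a larger set of genes) and 15 with age as a covariate (16.9%). They numbered 16 with body weight (16.1%), with DESeq2 (19.8%) or without 7 libraries of extreme GC slope (16.6%). With the GC slope they numbered 19 (Abca1, Dhcr7 and Srebf2 gained). The share of all genes was then 29.6%, against 16.3% without it. In KO 7 to 9 passed under the same settings, with 8.15% to 21.4% of all genes called. The 5-df test of time gave 10 in WT and 3 in KO, losing Cyp51, Idi1, Mvd, Mvk, Nsdhl and Sqle in WT and Abcg5, Fdft1, Pmvk and Stard4 in KO; the cause was not tested. Leaving out 1 library gave 12 to 17 in WT and 6 to 9 in KO. Single calls lost this way were Mvk (21 of 48 fits), Nsdhl (12), Cyp51 (5) and Sqle (2) in WT and Pmvk and Abcg5 (1 each) in KO. The 26 genes had 0 calls for the mean KO minus WT difference, the interaction and the difference in rhythm under every setting run; at single times leaving out 1 library gave 0 to 1 at ZT4 and 0 elsewhere. Over all genes, the mean difference called 191 genes, but 38 with body weight, 122 without a filter and 356 with DESeq2. With Sqle, 15 genes passed with a prior count of 0.5, 13 without TMM (Hsd17b7 and Insig1 lost) and 16 with the GC slope removed. Shares of all genes that passed with Sqle under these 3 settings are not given here. No called value reversed.

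WT and KO mice of a time share replicate numbers. Same-numbered mice had the same age in 22 of 23 pairs, but their deviations over all genes correlated above 0.1 in 13 (median 0.12), and 9 mice correlated best with their own number. With a replicate block the mean difference called 127 of all genes and 0 of the 26, and calls for Vldlr (0.50, adjusted p = 0.0858) and Star at ZT0 (-1.81, adjusted p = 0.453) were lost.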
